A study of Mus musculus with 2 samples.

Results

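Podocytes are the epithelial cells that wrap the capillaries of the glomerulus, and 9 of the genes that define them were followed here in arterioles isolated from mouse kidney. They are the slit diaphragm genes Nphs1 and Magi2, the foot process genes Synpo, Podxl, Clic5 and Ptpro, and the transcription factor genes Wt1, Tcf21 and Lmx1b. The genes were chosen by name, as the text before the first colon in the gene column of the authors' deposited table. Earlier results of these data were known when they were chosen. They carry 11 of the 35512 probe sets in that table, and they are 9 of the 22270 named genes on the arrays. Nphs1 and Magi2 have 2 probe sets each, and the brighter one was used.

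Preglomerular arterioles are the small arteries upstream of the glomeruli, and renin is made by cells in their walls. RNA of 4 male RBP-J cKO mice was pooled on 1 array, and RNA of 3 wild type mice, 2 males and 1 female, on the other. All animals were 3 months old, of mixed 129Sv and C57Bl6 background, and both groups carried RBP-J flox/flox and the reporter allele R26R ECFP. The groups differed in the renin locus, which was Ren1d+/cre in the cKO mice and Ren1d+/+ in the wild type mice, so that cre acts in cells that make or have made renin. RBP-J binds DNA and passes Notch receptor signals to their target genes. Each group is 1 pooled array without a replicate. The genotype could therefore not be tested, no p-value or standard deviation is given, the spread between animals is unmeasured, and genotype and sex of the pools cannot be told apart.

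Foot processes of neighbouring podocytes interlock, and the gap between them is bridged by the slit diaphragm, a cell junction built from nephrin and its partners that holds back plasma protein. Podocalyxin, a negatively charged sialomucin, keeps the processes apart, and an actin skeleton gives them their shape. The transcription factors WT1, TCF21 and LMX1B are needed for podocytes to form and to keep this structure. The arterioles were collected by magnetic separation from collagenase-digested cortex after iron oxide perfusion, and podocyte RNA on these arrays is RNA of a cell that lies beyond the end of the arteriole.

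Promoters are shown for the genes with the largest and the smallest difference, Nphs1 and Lmx1b, and for Magi2, whose windows held every motif found. Each window runs from 250 bases before to 50 after a gene start in the RefSeq table of GRCm38.p6, which held 7 windows for 6 of the 9 genes (Nphs1, Magi2, Clic5, Ptpro, Tcf21 and Lmx1b). The motifs searched on both strands were GCGTGGGNG and GCGGGGGNG, bound by zinc fingers of the WT1 and EGR type, TAATTA, the core bound by LIM homeodomain factors such as LMX1B, and the E-boxes CAGCTG and CATCTG, the class of motif bound by bHLH factors such as TCF21. TAATTA and CAGCTG read the same on both strands, and the zinc finger forms differ from each other at 1 base. Capitals mark the motifs, on either strand.
Nphs1, chr7:30459808-30460107, plus strand: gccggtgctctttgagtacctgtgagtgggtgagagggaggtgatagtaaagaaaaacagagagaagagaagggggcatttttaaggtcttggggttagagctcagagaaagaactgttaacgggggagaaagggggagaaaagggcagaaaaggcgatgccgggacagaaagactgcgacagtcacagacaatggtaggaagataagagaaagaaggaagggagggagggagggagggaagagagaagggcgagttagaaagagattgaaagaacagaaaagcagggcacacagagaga
Magi2, first window, chr5:19226796-19227095, plus strand: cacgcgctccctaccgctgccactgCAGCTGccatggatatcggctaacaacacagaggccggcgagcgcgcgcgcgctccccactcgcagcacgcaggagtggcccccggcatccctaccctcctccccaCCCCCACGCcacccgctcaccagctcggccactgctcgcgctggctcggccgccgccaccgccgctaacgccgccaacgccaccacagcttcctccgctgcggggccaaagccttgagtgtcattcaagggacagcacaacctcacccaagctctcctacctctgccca
Magi2, second window, chr5:19907268-19907567, plus strand: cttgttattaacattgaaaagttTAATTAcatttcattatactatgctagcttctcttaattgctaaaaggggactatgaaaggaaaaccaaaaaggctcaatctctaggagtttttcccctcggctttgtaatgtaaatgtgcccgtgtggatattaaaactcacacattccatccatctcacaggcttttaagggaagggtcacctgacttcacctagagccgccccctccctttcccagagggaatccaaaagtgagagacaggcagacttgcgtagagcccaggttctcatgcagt
Lmx1b, chr2:33641049-33641348, minus strand: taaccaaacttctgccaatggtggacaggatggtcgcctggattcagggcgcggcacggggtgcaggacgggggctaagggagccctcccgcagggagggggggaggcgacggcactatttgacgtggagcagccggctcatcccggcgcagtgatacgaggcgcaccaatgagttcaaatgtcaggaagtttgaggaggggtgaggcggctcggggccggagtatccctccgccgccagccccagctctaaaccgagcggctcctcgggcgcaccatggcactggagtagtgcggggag

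The first Magi2 window held CAGCTG from position -225 and, on the opposite strand, GCGTGGGNG from position -119, counted from the gene start. The second Magi2 window held TAATTA from position -227. The other 5 windows held none of the motifs, which says only that these letters are not in these windows. Of all 32851 promoter windows in the RefSeq set, GCGTGGGNG stood in 1.90%, GCGGGGGNG in 6.11%, TAATTA in 5.29%, CAGCTG in 16.3% and CATCTG in 17.2%.

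All 9 podocyte genes read lower on the cKO array than on the wild type array, by 0.06 to 0.63 on the log2 scale, with a median difference of -0.42 (RMA, cKO minus wild type). The floor was set at 7.56, the median over named probe sets, for the array on which a gene is brighter, and the 9 genes were all above it. Of the 11580 genes above the floor 46.0% were lower in cKO by any amount, and their median difference was 0.02. A gene is called low in cKO when its cKO value is at most 0.8 of its wild type value, a difference of -0.32 or beyond on the log2 scale. This held for 8 of the 9 genes, against 7.57% of all genes above the floor. Under a stricter floor of 8.97, which Lmx1b does not reach, 8 of the 8 genes left were lower and 8 were low by this rule, against 42.5% and 8.51% of the genes it keeps. At least 1.5-fold lower was Nphs1 alone of the 9, against 1.61% of all genes, and none of the 9 was 2-fold lower, against 0.199%. This holds for RMA and the brighter probe set. With the dChip values Nphs1 had a signed fold of -1.47, short of 1.5-fold. With the mean over the probe sets of a gene Magi2 passed 1.5-fold, at -0.64, and Nphs1, at -0.44, did not. In a tissue sample, fewer podocytes and less RNA per podocyte cannot be told apart.

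**Figure D1:**
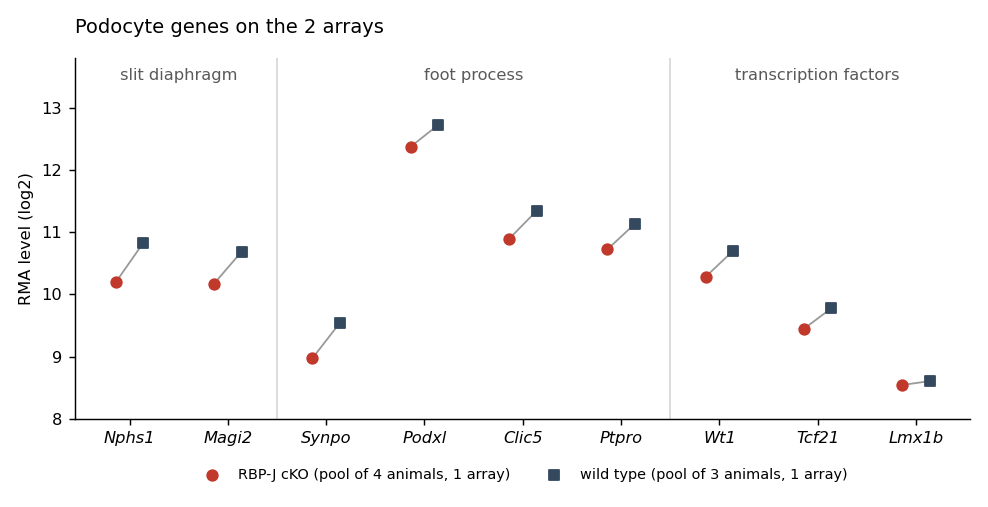
RMA levels on the log2 scale (vertical axis) of the 9 podocyte genes on the RBP-J cKO array (red circles) and the wild type array (dark squares), 1 pooled array each, with a line joining the values of a gene. The cKO value lies below the wild type value for each gene, by 0.63 for Nphs1 and by 0.06 for Lmx1b.

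Of the slit diaphragm genes, Nphs1 encodes nephrin, the adhesion molecule whose outer domains span the slit. Its level was 10.20 in cKO and 10.83 in wild type, a difference of -0.63, or 1.55-fold lower (probe set 10551907). The authors' deposited table gave dChip intensities of 1754 in cKO and 2575 in wild type, and a signed fold of -1.47 bounded by -1.43 and -1.51. Nphs1 had the largest difference of the 9 genes, and 1.12% of the genes above the floor had a lower one. Magi2 encodes a scaffold protein with PDZ domains that sits beneath the slit diaphragm and binds nephrin. Its level was 10.17 in cKO and 10.69 in wild type, a difference of -0.52, and the authors' deposited table gave intensities of 1349 in cKO and 1851 in wild type with a signed fold of -1.37.

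The second probe sets of these genes were dimmer and also lower in cKO. The other Nphs1 probe set (10551905) was below the floor, at 5.71 in cKO and 5.96 in wild type, a difference of -0.25. The other Magi2 probe set (10519942) read 7.43 in cKO and 8.20 in wild type, a difference of -0.77, whose size is uncertain because the cKO value is below the floor. The authors' deposited table gave it 267 in cKO and 464 in wild type, for a signed fold of -1.74 bounded by -1.67 and -1.81. The probe sets of each gene thus gave the same direction and unequal sizes.

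The genes of the foot process were lower by 0.35 to 0.57. Synpo encodes synaptopodin, an actin-associated protein of the foot process, and its level was 8.97 in cKO and 9.54 in wild type, a difference of -0.57. Clic5 encodes an intracellular chloride channel protein that associates with ezrin and podocalyxin under the membrane, and it read 10.89 in cKO and 11.35 in wild type, a difference of -0.45. Ptpro encodes a receptor tyrosine phosphatase of the apical podocyte membrane, also known as GLEPP1. Its level was 10.72 in cKO and 11.14 in wild type, a difference of -0.41. Podxl encodes podocalyxin, which vascular endothelium also makes, and it had the smallest difference of the 4, -0.35, with 12.38 in cKO and 12.73 in wild type.

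The dChip intensities also gave Synpo the largest and Podxl the smallest difference of these 4 genes, with Clic5 and Ptpro almost equal. In the authors' deposited table Synpo had 1406 in cKO and 1915 in wild type, a signed fold of -1.36. Clic5 had 2698 in cKO and 3617 in wild type, and Ptpro 1980 in cKO and 2652 in wild type, both with signed folds of -1.34 in that deposited table. Podxl again differed least of the 4, with 6104 in cKO, 7109 in wild type and -1.16 as its signed fold in the authors' deposited table.

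The transcription factor genes had the smallest median of the 3 groups, -0.33, against -0.43 for the foot process and -0.58 for the slit diaphragm genes. Wt1 encodes a zinc finger factor that drives the nephrin and podocalyxin genes, and its level was 10.28 in cKO and 10.70 in wild type, a difference of -0.42. Tcf21 encodes a basic helix-loop-helix factor of podocytes and of the kidney stroma, and it read 9.45 in cKO and 9.78 in wild type, a difference of -0.33. Lmx1b encodes a LIM homeodomain factor that is mutated in nail-patella syndrome. It was almost equal on both arrays, at 8.54 in cKO and 8.60 in wild type, a difference of -0.06, and 34.9% of the genes above the floor had a lower one.

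Lmx1b was also the gene on which the processings were furthest from each other in proportion. Its dChip intensities in the authors' deposited table were 554 in cKO and 624 in wild type, for a signed fold of -1.13 bounded by -1.06 and -1.2, which is -0.17 on the log2 scale. Wt1 had 2113 in cKO and 2659 in wild type, a signed fold of -1.26, and Tcf21 had 1051 in cKO and 1363 in wild type, a signed fold of -1.3, in the same deposited table. The dChip values thus put Tcf21 ahead of Wt1, though their bounds overlapped, while RMA put Wt1 ahead of Tcf21.

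**Figure D2:**
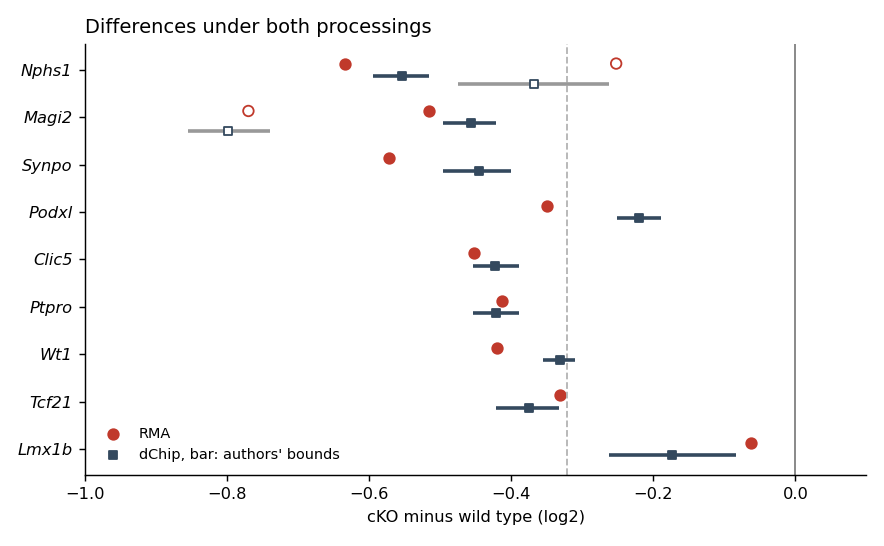
Log2 difference, cKO minus wild type (horizontal axis), for each of the 9 genes, from RMA (red circles) and from dChip (dark squares, with bars for the authors' bounds). Open symbols with grey bars are the second probe sets of Nphs1 and Magi2, the dashed line is a cKO value at 0.8 of wild type, and the points of all 9 genes lie left of 0 in both processings.

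With the dChip values the 9 genes were again all lower, with a median of -0.42, against 45.6% of all genes above the floor that were lower with these values. By the rule for low 7 of the 9 were called, against 7.34% of all genes. The difference was larger in RMA for 6 genes and larger in dChip for the other 3, Ptpro, Tcf21 and Lmx1b. The authors' bounds both lay below -1 for 9 of the 9 genes, against 34.7% of all genes above the floor, so that they mark many genes besides these. The sources used here do not give the confidence level of the bounds, and with 1 array a group they hold no spread between animals. The authors marked 326 probe sets by a comparison filter whose criteria are unknown here, and 0 of the 11 probe sets of these genes carry the mark.

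The bounds were also compared among the 9 genes, for the brighter probe set of each. Because they hold no spread between animals, bounds that lie apart are no test of a difference between genes. On these probe sets the bounds of Nphs1 were apart from those of the other 8, with the largest fold of the 9 in the authors' deposited table. The dimmer Magi2 probe set described above had a larger one, with a signed fold of -1.74. On the brighter probe sets the bounds of Magi2, Synpo, Clic5, Ptpro and Tcf21 overlapped in 10 of 10 pairs. Those of Wt1 overlapped with Tcf21 alone, and those of Podxl with Lmx1b alone, the pair with the smallest folds. In all, bounds overlapped in 12 of the 36 pairs.

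**Figure D3:**
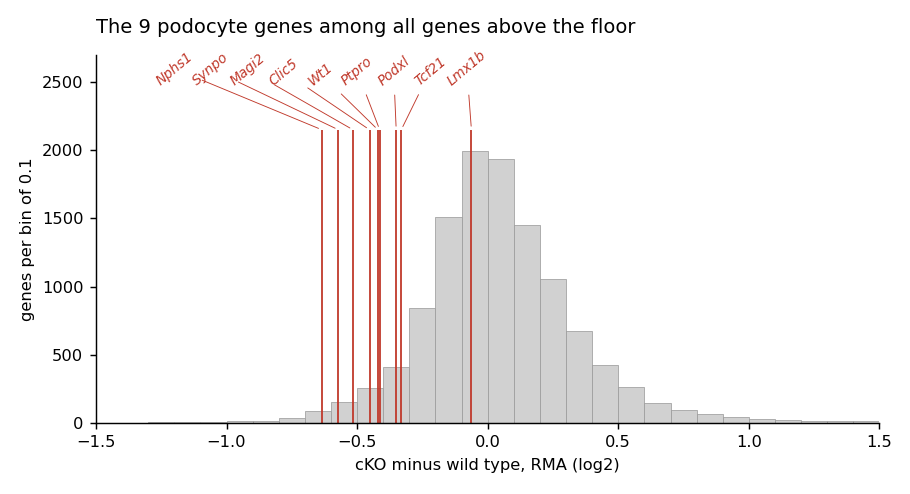
Number of genes (vertical axis) in bins of 0.1 of the RMA log2 difference, cKO minus wild type (horizontal axis), for the 11580 genes above the floor, of which 23 lie outside the range plotted. Red lines mark the 9 podocyte genes, 8 of which lie in the lower flank, while Lmx1b lies near the centre.

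Other genes of the slit diaphragm junction and its signalling were mostly lower, from -0.41 to 0.69. Of 17 above the floor, 13 were lower, or 76.5%, and 4 higher, and 6 met the rule for low, or 35.3%. Of all genes above the floor 46.0% were lower and 7.57% low. Of the 6 low genes 1 was above the floor on the wild type array alone, so the size of its difference is uncertain. Myo1e, encoding a class I myosin, differed by -0.41, Tjp1, encoding the junction protein ZO-1, by -0.39, and Nck1, the adaptor that couples nephrin to actin, by -0.36. Cdh3, encoding P-cadherin, went the other way, with 8.12 in cKO and 7.43 in wild type, a difference of 0.69. Its wild type value is below the floor, so it passed the floor through the cKO array alone and the size of its difference is uncertain.

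Genes of the foot process skeleton ranged from -0.71 to 0.33, the value of Slc9a3r1, which encodes the NHERF1 adaptor and was chosen for mention after its value was seen. Of 18 above the floor, 12 were lower, or 66.7%, and 6 higher, with a median of -0.10 that was -0.05 with the dChip values. The rule for low was met by 5, or 27.8%, against 46.0% lower and 7.57% low among all genes. The sign of 4 of the 18 turned under another scaling. Nes, encoding the intermediate filament nestin, read 9.57 in cKO and 10.28 in wild type, a difference of -0.71, and Ddn, encoding dendrin, 8.90 in cKO and 9.60 in wild type, a difference of -0.70. Both differences were larger than that of Nphs1. Inf2, a formin gene, differed by -0.50, and Slc9a3r2, encoding the NHERF2 adaptor that links podocalyxin to ezrin, by -0.47.

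Of other transcription factor and cofactor genes of podocytes 9 of 13, or 69.2%, were lower, against 46.0% of all genes above the floor. The list median was -0.16, and 1 of the 13, or 7.69%, met the rule for low, near the 7.57% of all genes. The largest difference was that of Ldb1, encoding the LIM domain binding partner of LMX1B, with 10.97 in cKO and 11.31 in wild type, a difference of -0.34. Dach1 differed by -0.31, Wtip, named for its binding to WT1, by -0.31, and the forkhead gene Foxc1 by -0.30. With Lmx1b they stood nearer to 0 than the slit diaphragm genes Nphs1 and Magi2 did.

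Genes of the glomerular basement membrane and the receptors that hold podocytes to it were lower 14 times in 16, or 87.5%, against 46.0% of all genes. The list median was -0.18, and 4, or 25.0%, met the rule for low, against 7.57% of all genes. The 4 were Lamb2, encoding the laminin chain of the mature membrane, at -0.39, and Npnt, encoding the integrin ligand nephronectin, at -0.37. With them were Itga3, encoding the podocyte laminin receptor chain, at -0.36, and Agrn, encoding the heparan sulphate proteoglycan agrin, at -0.33. Genes of signals and cell surface receptors were lower 13 times in 16, or 81.2%, at a median of -0.27. The rule was met by 6, or 37.5%, and the shares of all genes are again 46.0% and 7.57%. Pla2r1 and Thsd7a, which encode the autoantigens of membranous nephropathy, differed by -0.62 and -0.45, and the semaphorin gene Sema3e by -0.48. Angpt1, encoding angiopoietin 1, read 7.84 in cKO and 7.32 in wild type, a difference of 0.53, and it too was above the floor on the cKO array alone.

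The remaining podocyte-enriched genes were divided, with 7 of 13 lower, or 53.8%, and a median of -0.0022 that was 0.032 with the dChip values. Of them 4, or 30.8%, met the rule for low. Nebl differed by -0.53, the complement regulator gene Cd59a by -0.52, the polarity gene Pard3b by -0.42 and Mapt, encoding the microtubule protein tau, by -0.41. Over the 6 lists together, 68 of 93 genes above the floor, or 73.1%, were lower in cKO, and 26, or 28.0%, met the rule for low, against the 46.0% and 7.57% of all genes given above. Their median was -0.18, against -0.42 for the 9 genes. The lists were chosen with earlier results of these data known, so these shares are no independent comparison. Many genes on these lists are also expressed outside podocytes, and the sign of 11 of the 93, none of them named here, turned under another scaling.

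**Figure D4:**
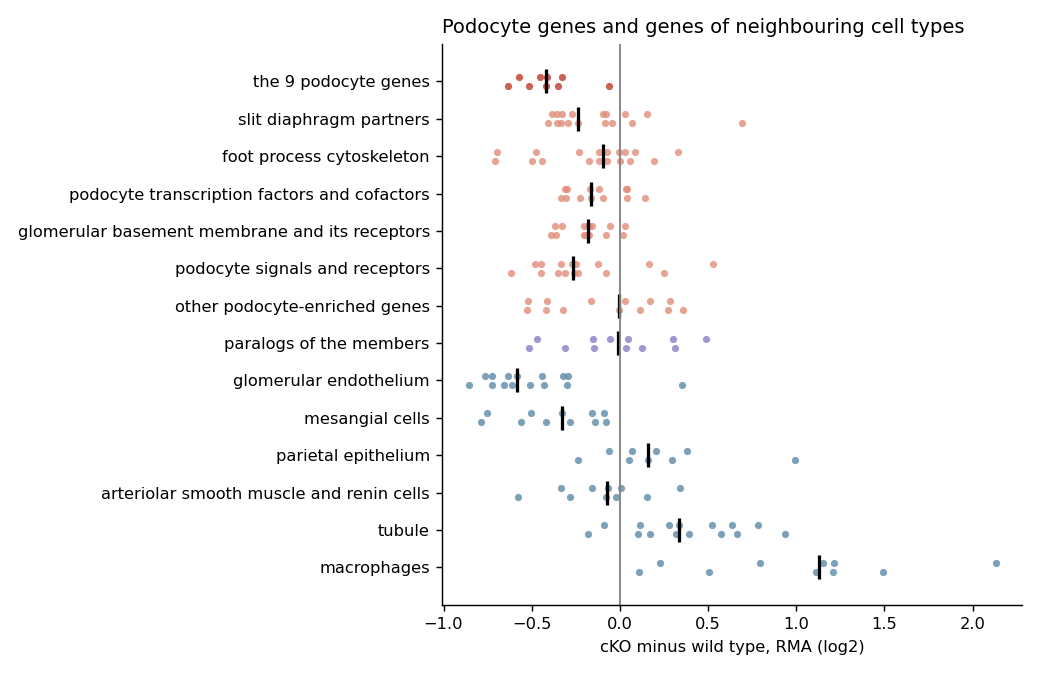
RMA log2 differences, cKO minus wild type (horizontal axis), for the genes above the floor in each list (rows). Each point is 1 gene, black bars are list medians, and colours separate the 9 podocyte genes, other podocyte lists, paralogs and lists of other cell types. The median of the 9 genes is -0.42, that of glomerular endothelium -0.58 and that of tubule 0.34.

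Relatives of the 9 genes by sequence did not share one direction. Of 12 above the floor 6 were lower and 6 higher, with a median of -0.01. Against -0.52 for Magi2, the related scaffold genes Magi1 and Magi3 differed by 0.04 and -0.15. Against -0.45 for Clic5, Clic1 differed by -0.15, Clic3 by -0.31 and Clic4 by -0.06. Against -0.57 for Synpo, the muscle gene Synpo2 differed by 0.05. These relatives differed by less than the podocyte gene of their family, and no test of these gaps could be made.

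Cd34 and Ptprb, which endothelium expresses, were lower by more than their podocyte relatives. Against -0.35 for Podxl, the related sialomucin gene Cd34 differed by -0.52. Against -0.41 for Ptpro, the endothelial phosphatase gene Ptprb differed by -0.47, while Ptprj, of the same receptor class, differed by 0.31. The EGR genes, whose zinc fingers resemble those of WT1 and which respond rapidly to stimuli, were higher, Egr2 by 0.49, Egr1 by 0.30 and Egr3 by 0.13, against -0.42 for Wt1.

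Genes listed for the cells that share the glomerulus with podocytes were mostly lower as well, while 46.0% of all genes above the floor were lower. Of the genes listed for glomerular endothelium 14 of 15, or 93.3%, were lower, with a median of -0.58. Among them were Gata5 at -0.86, Egfl7 at -0.76 and Ehd3 at -0.72. The rule for low was met by 11 of the 15, or 73.3%, and 7 were at least 1.5-fold lower, against 7.57% and 1.61% of all genes. Of the mesangial genes 11 of 11 were lower, with a median of -0.33, and Gata3 (-0.79), Ptn (-0.75) and Tbx3 (-0.56) differed most. Of the mesangial genes 6 of the 11, or 54.5%, met the rule for low. The median of the 9 podocyte genes lay between those of the endothelial and mesangial lists, and 8 of the 9 met the rule. Whether the RNA of the endothelial and mesangial lists came from the glomerulus or from other vessels was not tested. Genes listed for parietal epithelium, the lining of Bowman's capsule, were higher in 7 of 9 cases, and the list median was 0.16. Among them were Krt8 at 0.99, Pax8 at 0.38 and Cldn1 at 0.30, genes that tubule cells also express. Lower were 22.2% of the list, against 46.0% of all genes, and the sign of 2 of the 9 turned under another scaling.

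The summed dChip intensity of the probe sets used, also of listed genes below the floor, gives the same directions on a linear scale. In the authors' deposited values it was 19008 in cKO and 24364 in wild type for the 9 podocyte genes, 30498 in cKO and 42087 in wild type for glomerular endothelium, and 21650 in cKO and 26387 in wild type for mesangial cells. For arteriolar smooth muscle and renin cells, listed here for the wall of the arterioles that the labels name, it was 14073 in cKO and 15396 in wild type. Of these sums Ren1 alone gave 1605 in cKO and 2655 in wild type, a large part of the gap. Since the groups differ in the renin locus itself, the cre allele and the loss of RBP-J cannot be told apart in the Ren1 value. Tubule genes summed to 52815 in cKO and 44138 in wild type, and macrophage genes to 7686 in cKO and 3744 in wild type, so that these moved opposite to the podocyte genes. Their part in the lower podocyte values was not tested.

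The defining genes of the arteriole were present on both arrays. Acta2, encoding smooth muscle actin, read 11.36 in cKO and 11.21 in wild type, and Myh11 9.37 in cKO and 9.53 in wild type. Of smooth muscle and renin cell genes 7 of 10, or 70.0%, were lower, against 46.0% of all genes above the floor. Their list median was -0.07, with Ren1 at -0.58, Gja5 at -0.33 and Tagln at 0.34. Of the other markers, tubule genes were higher in 13 of 15 cases, led by Pvalb at 0.94, Slc26a4 at 0.79 and Atp6v1b1 at 0.67. Of the defining tubule genes Lrp2 was higher, by 0.28, while Slc12a1 at -0.09 and Aqp2 at -0.18 were the 2 lower genes of the list. Macrophage genes were higher in 10 of 10, led by Lyz2 at 2.13, Adgre1 at 1.49 and Ctss at 1.21. Lower were 13.3% of the tubule genes and 0 of the macrophage genes, against 46.0% of all genes. The sign of 2 of the 15 tubule genes turned under another scaling. Adgre1 and Ctss were below the floor in wild type and passed it through the cKO array alone, so their differences are uncertain in size. The defining podocyte genes Nphs1, Synpo and Podxl, and those of tubule, Lrp2, Slc12a1 and Aqp2, were above the floor on both arrays, so that RNA of both was measured. Those of glomerular endothelium, Kdr at -0.72, Ehd3 at -0.72 and Emcn at -0.29, were also above the floor on both arrays.

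The genes whose pair of levels lay nearest to that of Nphs1 over the 2 arrays were Gimap6 at a distance of 0.037 on the log2 scale, Ren1 at 0.061, Myom2 at 0.077, Nuak1 at 0.091 and Dbp at 0.096. With 2 arrays this likeness rests on 1 difference and on probe brightness.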

How the data were processed

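Log2 values of 34760 probe sets were deposited by the authors. RMA is named in the submitters' processing notes, with R 2.15.0 and limma 3.12.1, without a stated role. Linear dChip intensity values of 35512 probe sets were deposited for the same arrays, per the file headers, with a signed fold score (cKO over wild type, minus where wild type was higher) and its bounds. The sources used here do not give array design, dChip version or genome build. Array medians were 7.21 in cKO and 7.25 in wild type (RMA). RMA equalises the distributions of the arrays and would hide a shift of most genes. The number of arrays limits the precision.

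Symbols came from the dChip table, updated through a RefSeq gene table of GRCm38.p6. Of its probe sets 18664 were matched by RefSeq accession, 2420 by current symbol and 1957 by synonym, 2134 kept their symbol and 10337 had none. For the 1323 genes with several probe sets the one brightest on average was used. Log2 differences run cKO minus wild type, and lists are described by counts and medians. The calculation was tested on simulated data. The members and lists were chosen with earlier results of these data known. The text names the 9 genes, the 4 genes of each other podocyte list and the 3 of each cell type list with the largest absolute difference, all relatives above the floor, and the 5 genes nearest to Nphs1, leaving out predicted genes, small RNAs and chemosensory receptors; the defining markers come in addition. One gene of the slit diaphragm partner list is not reported here and enters none of the counts for that list. Alternatives were the dChip values, centring on the median or on a loess trend, the mean over probe sets, omitting the floor, raising it to the 75th percentile (8.97), other fold thresholds, and leaving out each of the 9 genes. Python 3.11.15, pandas 2.3.3, NumPy 2.4.6, statsmodels 0.14.6 and matplotlib 3.10.9 were used.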

Additional observations from a re-analysis of the deposited data

How the results depend on the processing

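No direction of the 9 genes turned under the dChip values, median centring, loess centring or the mean over probe sets. Their median difference lay between -0.51 (loess centring) and -0.42 over these, and between -0.44 and -0.42 when each gene was left out in turn. Of all alternative values computed, 124 moved by less than 0.098 on the log2 scale (the standard deviation of RMA minus dChip differences over genes) or stayed within 1.5 times the count, and 20 moved further. The cause was not tested except where fewer or more genes entered. Many of the 124 could not move further. Median centring lowers each difference by 0.02, below that limit, and could not turn a lower gene. The mean over probe sets leaves genes with 1 probe set as they are. Omitting the floor leaves a list as it is when all its genes pass the floor. The count of 124 is therefore no measure of stability. With RMA and the brighter probe set, 1 of the 9 genes was at least 1.5-fold lower and 0 were 2-fold lower. By comparison, 8 had a cKO value of at most 0.8 of wild type. With the mean over probe sets Nphs1 differed by -0.44 and Magi2 by -0.64. Of all genes, 1758 met that rule with no floor and 512 with the stricter floor, against 877. With loess centring the medians were -0.70 for glomerular endothelium, 0.21 for tubule, -0.20 for the foot process skeleton and -0.37 for podocyte signals and receptors. The glomerular endothelial median was -0.44 with the dChip values. With the stricter floor, which keeps fewer genes, the medians were 1.00 for macrophages, 0.34 for parietal epithelium, -0.16 for other podocyte-enriched genes and -0.15 for the relatives of the 9 genes. No paired analysis was possible because each group has 1 array.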
